A study of Mus musculus with 2 samples.

Results

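Endothelial cells, the lining of blood and lymphatic vessels, were found alongside tumour epithelium in a culture of mouse intestinal adenomas. They were chosen by counts of their own transcripts. A barcode of the control library was taken when it held at least 2000 unique molecular identifiers (UMIs, each standing for 1 captured RNA molecule), at most 20% of them from mitochondrial genes, and at least 5 UMIs in all of Pecam1, Cdh5, Kdr, Plvap, Esm1 and Egfl7. That sum also had to exceed the sum of the epithelial genes Epcam, Krt8, Krt18 and Krt19 and the sum of the macrophage genes C1qa, C1qb, C1qc, Csf1r, Pf4 and Adgre1. Of 3143 control cells within the depth and mitochondrial limits, 126 met the rule, or 4.01% (95% Clopper-Pearson interval 3.35 to 4.75). Intervals here cover counting error only.

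Both cultures came from C57BL/6 mice of genotype ApcMin/+, which carry 1 truncated copy of the Wnt pathway inhibitor Apc, at an age of 17 weeks. The control culture received no RSPO1-Fc. The other received this fusion of R-spondin 1, a secreted enhancer of Wnt signalling, to an antibody Fc part, at 10 μg/ml per the treatment protocol (another label gives milligrams). The labels do not say how cells other than epithelium came to be in the culture. Each group was 1 library of 3′ counted UMIs, and the labels do not say how many animals or cultures it pooled. No difference therefore has a replicate check and no p-value was computed. Differences between the members and other cells describe cells that were selected on such counts.

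Vessels grow by sprouting. Vascular endothelial growth factor (VEGF) reaching the receptor KDR turns some endothelial cells into migrating tip cells, which make Esm1, Apln and Angpt2, and DLL4 on these cells signals through Notch to hold their neighbours back as stalk cells. Cells downstream of the capillaries, in venules, display selectins, ACKR1 and, in the gut, the lymphocyte address molecule MADCAM1. Lymphatic endothelium is set apart by the transcription factor PROX1 and by LYVE1, FLT4 and the chemokine CCL21.

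The members held 2069 to 81107 UMIs (median 13554.5) and a median of 3808.5 genes, against medians of 27003 UMIs in 1932 epithelial cells and 10637 in 324 macrophages. Pericytes, the cells that wrap capillaries, numbered 75 and fibroblasts 146, and 540 cells with no leading marker sum had a median of 3137 UMIs. These classes were set by marker sums in the same way. The sum of the 6 endothelial genes ran from 10 to 491 UMIs per member, with a median of 104. No member lay at a sum of 5 to 9, and 10 members held 10 to 15. Just outside, 3 cells in which these genes led held 3 or 4 UMIs of them. A further 47 cells with at least 5 had an epithelial or macrophage sum at least as large. Of these 47, 7 held at least 10 UMIs, 6 of them in the epithelial class, and the highest held 193. All stayed among the other control cells.

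Per cell, Pecam1, an adhesion molecule of endothelial junctions, had a lowest count of 1, a median of 20 and a highest of 76 UMIs. Cdh5, the cadherin of those junctions, had 2, 17.5 and 112, and Plvap, which forms the diaphragms of leaky capillaries, 0, 28 and 180. These 3 genes were widely detected, though their counts varied: Pecam1 and Cdh5 were seen in all 126 members and Plvap in 123. The rule chose members by a sum that holds these genes, so wide detection follows in part from it. Esm1, a secreted proteoglycan of tip cells, was uneven, with a median of 1 and a highest count of 159 UMIs and 34.1% of its UMIs in 5 cells. Kdr and Egfl7, a matrix protein of growing vessels, were seen in 122 and 125 members. After thinning every cell to 2000 UMIs, Esm1 was seen in 38.9% of members and 0.0518% of epithelial cells, and Cdh5 in 92.1% and 1.6%.

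Markers of other cells were present in the members and mostly at low counts. At least 1 UMI of the pericyte markers was in all but 72 members, and none of the 6 fibroblast markers was seen in 113. By pericyte marker, the number of members with a UMI ran from 2 to 45, so part of this signal was not confined to a few cells. All 4 epithelial genes of the rule were at 0 in 55 members and summed to 1 to 5 UMIs in 68, and 69.8% of their UMIs came from 2 cells. Markers of B cells were at 0 in all members, as were 4 of 6 T cell markers and 5 of 6 markers of glia and neurons. The 6 pericyte markers summed to 349 CPM (counts scaled so that each group of cells sums to the same total) in the members and 166 CPM in all other control cells, and 2 of the 3 that reached 20 CPM were at least 2-fold higher in the members. Without the mixed cells described next, the median log2 ratio of these 3 genes went from 2.24 to −1.50. Mixed cells were picked in part by these markers, so a fall follows by construction. In all, 15 of the 126 members were counted as mixed because they carried at least 5 UMIs of pericyte markers (11 cells) or fibroblast markers (6 cells), or an epithelial sum of at least 50% of the endothelial one (2 cells). Some met more than 1 of these, and their part in the results was not tested beyond leaving them out. Barcodes with 11 to 100 UMIs, which hold free RNA, showed the epithelial genes at 4169 CPM, where the members showed 229 CPM and the unmixed members 60.5 CPM.

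The control library held 0 of its 3143 cell barcodes in common with the RSPO1-Fc library. No cell of the 2979 in that library met the endothelial rule, which allows a share of up to 0.101%. Kdr and Esm1 were at 0 UMIs in those cells. Over all barcodes of that library, including those too shallow to count as cells, Kdr had 276, Plvap 218 and Esm1 16 UMIs, against 1948, 5347 and 1645 in the control library. Cdh5 stood at 11.3 CPM there and at 9.24 CPM in the control epithelial class, and Egfl7 at 16.6 and 12.6 CPM. In that library 37 cells held at least 5 UMIs of the 6 genes, up to 13, and none of them met the rest of the rule. The labels name the same kit for both libraries, but the 2 matrices list 31053 and 27998 genes and differ in barcode list. Whether the chemistry differed was not tested. Neither group had a replicate, so RSPO1-Fc cannot be told apart from any other difference between the cultures or libraries. The cause of the difference in endothelial cells was not tested.

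Levels below are UMIs summed over the cells of a class and given as CPM, where 1 UMI of the members is 0.466 CPM. A gene was compared when it reached 20 CPM in the members or in all 3017 other control cells, and was called higher or lower at a 2-fold difference. One that passed only through the members could not be called lower, nor one that passed only through the other cells higher. Of 7680 such genes, 18.2% were called higher and 18.2% lower in the members, and 5.52% were at least 2-fold above each other class. The median log2 ratio, members over other cells with 1 CPM added to each, was −0.13 over all of them.

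All 30 pan-endothelial genes, none of them used by the rule, passed the filter and were called higher, and 28 of them lay at least 2-fold above each class. Their median log2 ratio was 6.24. Cd34, a sialomucin of vessel and blood progenitor surfaces, stood at 807 CPM (interval 770 to 846) in the members and 1.55 CPM in other cells. Ptprb, the phosphatase that dampens the receptor TEK, stood at 815 CPM (778 to 854) and 1.8 CPM, and Emcn, a mucin of venous and capillary endothelium, at 459 CPM (431 to 489) and 0.928 CPM. By ratio to all other cells, the smallest difference was that of Ecscr, an endothelial surface protein, at 636 CPM in the members and 221 CPM in the epithelial class. Mcam, an adhesion molecule shared with pericytes, was among the genes that did not lie 2-fold above each class.

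**Figure D1:**
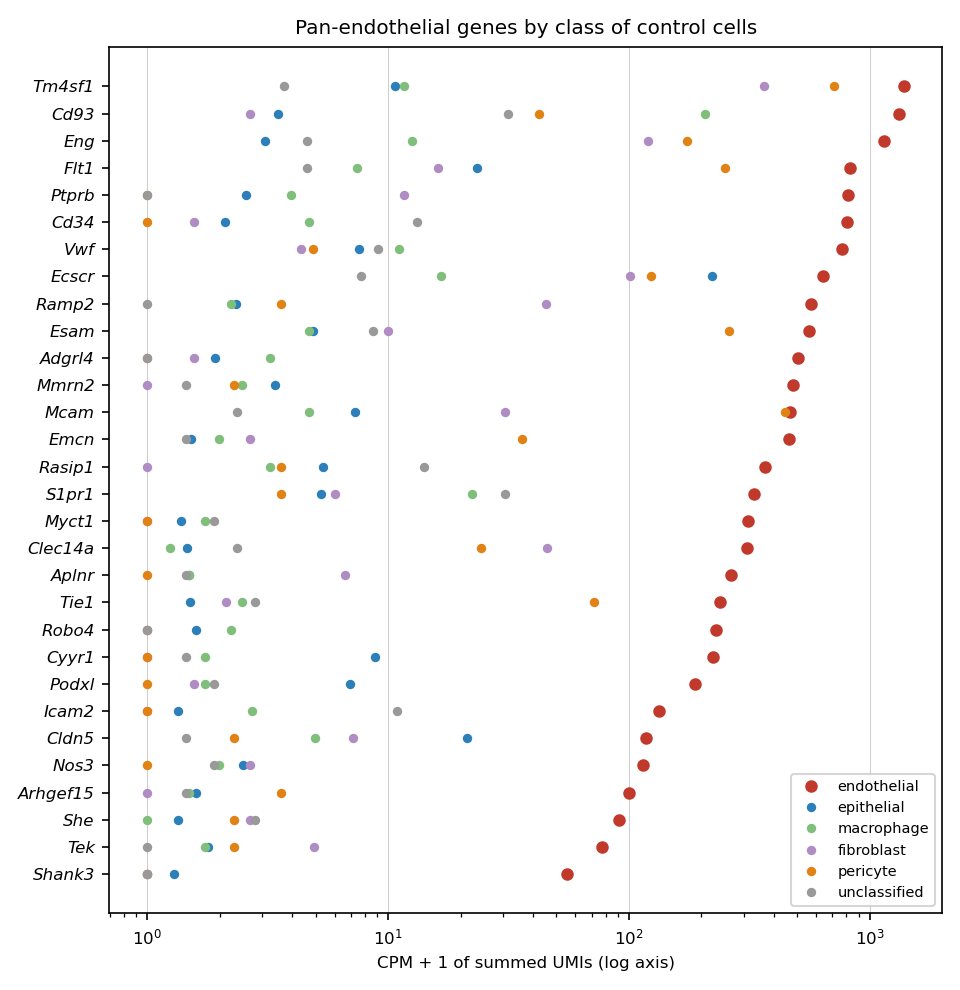
Summed UMIs of the 30 pan-endothelial genes as CPM + 1 on a log axis, 1 point per class of control cells. The endothelial points lie to the right of the other classes for every gene, and for 28 of the 30 by at least 2-fold. For Mcam the pericyte point almost meets the endothelial one, and for Ecscr the epithelial class reached 221 CPM.

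By ratio, and with the genes of the rule left out, the 15 highest genes at 50 CPM or more were Cd34, Ptprb, Apln, Vwa1, Adgrl4, Emcn, Gpihbp1, Myct1, Selp, Aqp1, Ctla2a, Fam167b, Ramp2, Aplnr and Mmrn2. Ctla2a and Ramp2 overlap other genes on their strand. Myct1, a membrane protein of endothelium, had 312 CPM in the members and 0.398 CPM in other cells, a 783-fold difference (543 to 1170). Aqp1, a water channel of continuous endothelium, had 1050 CPM and 4.03 CPM, or 260-fold (231 to 295). At the other end the 10 lowest were Mt4, Pnliprp1, Pnliprp2, Ctss, H2-Eb1, Alb, Ptn, Igkc, Lyz2 and Cadps. Of these, 6 were highest in the epithelial class, 3 in macrophages and Igkc, an immunoglobulin light chain, in the cells with no leading marker sum, at 4312 CPM. The lowest ratio was that of the metallothionein Mt4, at 10.7 CPM in the members and 1232 CPM in other cells.

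The DNA just before the starts of these genes is shown because the ETS factors ERG and FLI1, both present in the members (59.2 and 251 CPM), bind a GGAA core. RefSeq promoters of build GRCm38.p6, 250 bases before each start, were searched on both strands for AGGAAG, whose reverse complement is CTTCCT. Parts of 5 promoters are given, 5′ to 3′ on the strand of the gene, with the match in capitals. They are Cd34 (chr1:194938619-194938738, plus strand), Emcn (chr3:137340925-137341044, plus), Apln (chrX:48034907-48035026, minus), Selp (chr1:164115140-164115259, plus) and Robo4, a guidance receptor of resting vessels (chr9:37401852-37401971, plus).
Cd34: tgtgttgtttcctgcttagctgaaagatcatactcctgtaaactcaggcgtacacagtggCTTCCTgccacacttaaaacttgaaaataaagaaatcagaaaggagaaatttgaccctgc
Emcn: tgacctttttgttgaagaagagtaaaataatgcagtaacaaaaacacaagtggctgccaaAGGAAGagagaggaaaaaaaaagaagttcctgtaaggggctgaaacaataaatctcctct
Apln: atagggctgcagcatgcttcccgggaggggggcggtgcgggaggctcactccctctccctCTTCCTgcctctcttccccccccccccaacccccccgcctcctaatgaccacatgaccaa
Selp: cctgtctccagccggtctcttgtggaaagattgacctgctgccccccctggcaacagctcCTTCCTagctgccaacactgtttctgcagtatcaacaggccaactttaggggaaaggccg
Robo4: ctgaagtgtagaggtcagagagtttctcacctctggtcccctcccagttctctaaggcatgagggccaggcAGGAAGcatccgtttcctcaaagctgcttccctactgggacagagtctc
The match lay in 8 of the 9 highest genes that had a promoter in the table (88.9%), in 10 of 17 pan-endothelial genes (58.8%), in 40.5% of 304 genes at least 2-fold above each class and in 32.6% of 6038 genes that passed the filter. The longer CCGGAAG (or CTTCCGG) also holds the GGAA core, and shares GGAAG with AGGAAG but never the same 6 bases. It was in 0 of 9, 0 of 17, 3.62% and 16.8%, so words with this core did not run the same way. The promoters also differed in composition. The median number of CG pairs in 250 bases was 4 for the highest genes, 5 for the pan-endothelial genes and 17 for all genes that passed. A match is a description of letters and no evidence of binding.

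Of 22 endothelial transcription factors 17 passed the filter, 15 were called higher and none lower, with a median log2 ratio of 4.35. Erg had 127 UMIs in the members and 0.0796 CPM in other cells, and Sox7, an early endothelial SOX factor, stood at 141 CPM and 0.544 CPM. Sox18, its relative in vessel and lymphatic development, stood at 436 CPM and 13.6 CPM. Sox17, a SOX factor of arteries that the adenoma epithelium also contained, was not called, at 74.2 CPM in the members and 96.4 CPM in other cells. Klf2, induced by blood flow, stood at 627 CPM (594 to 661) in the members and 413 CPM in the highest other class.

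The receptors of the VEGF family were high in the members and its main ligand was low. Flt1, the decoy receptor, stood at 827 CPM, with pericytes next at 250 CPM. Kdr, which the rule used, stood at 791 CPM, and Flt4, the receptor for VEGFC, at 74.6 CPM. Among the co-receptors, Nrp1 stood at 253 CPM in the members and 315 CPM in pericytes. Vegfa itself was seen in 7 members, at 7.46 CPM (4.27 to 12.1), and stood at 189 CPM in macrophages, 121 CPM in fibroblasts and 35.2 CPM in the epithelial class. Of the 13 genes of this list 10 passed, 7 were called higher and 2 lower (Vegfa and the semaphorin Sema3c).

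Angiopoietin 2, which loosens vessels by opposing TEK signalling, was high in the members. Angpt2 stood at 382 CPM (356 to 409) in 73 members, at 135 CPM in pericytes and at 14.5 CPM in the epithelial class. Angpt1, the activating ligand, had 2 UMIs in the members and 17.4 CPM in fibroblasts. The receptors Tie1 and Tek stood at 239 and 76 CPM in the members. Apln, a peptide of tip cells, and its receptor Aplnr stood at 612 and 265 CPM in the members and at most 1.68 and 5.6 CPM in any other class. Apln was seen in 65 members and Aplnr in 96, with 59 holding both. Apln was uneven, with a median of 1 and a highest count of 241 UMIs per member and 39.5% of its UMIs in 5 cells.

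Of the tip cell list all 17 genes passed and 16 were called higher, with 6 at least 2-fold above each class and a median log2 ratio of 4.53. Pcdh17, an adhesion molecule, stood at 351 CPM in the members and 3.74 CPM in other cells. Igfbp3, which binds insulin-like growth factors, stood at 1912 CPM (1854 to 1972) and 12.1 CPM. The exception was Ramp3, a partner of the adrenomedullin receptor, at 4.66 CPM and 49.5 CPM. The related Ramp2 stood at 569 CPM and the shared receptor Calcrl at 140 CPM.

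Of 16 Notch genes 8 passed and 7 of these were called higher, none lower. Dll4, the tip cell ligand, stood at 170 CPM in the members and at most 7.15 CPM elsewhere. Notch4, a receptor of endothelium, stood at 118 CPM, and Notch1 at 206 CPM against 49 CPM in the next class. The target gene Hes1 was not called, at 158 CPM in the members and 287 CPM in other cells. Notch3, the receptor of mural cells, stood at 618 CPM in the pericytes and in the members was seen in 2 cells.

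For some ligand and receptor pairs, the ligand was highest in the members and the receptor in another class. Pdgfb, which recruits pericytes, stood at 239 CPM (219 to 261) in 98 members, and its receptor Pdgfrb at 1091 CPM in the pericytes and 333 CPM in fibroblasts. Edn1, the precursor of the constrictor endothelin, stood at 168 CPM in the members, and its receptor Ednra at 507 CPM in the pericytes. Other pairs were present on both sides. The chemokine Cxcl12 was at 153 CPM in the members and 138 CPM in fibroblasts. Its receptor Cxcr4 was at 146 CPM in the members, 145 CPM in macrophages and 193 CPM in the cells with no leading marker sum. Kit, a receptor tyrosine kinase, stood at 197 CPM in 93 members, with at most 69.3 CPM in another class, and its ligand Kitl at 261 CPM in the epithelial class, 205 CPM in pericytes and 106 CPM in 77 members.

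**Figure D2:**
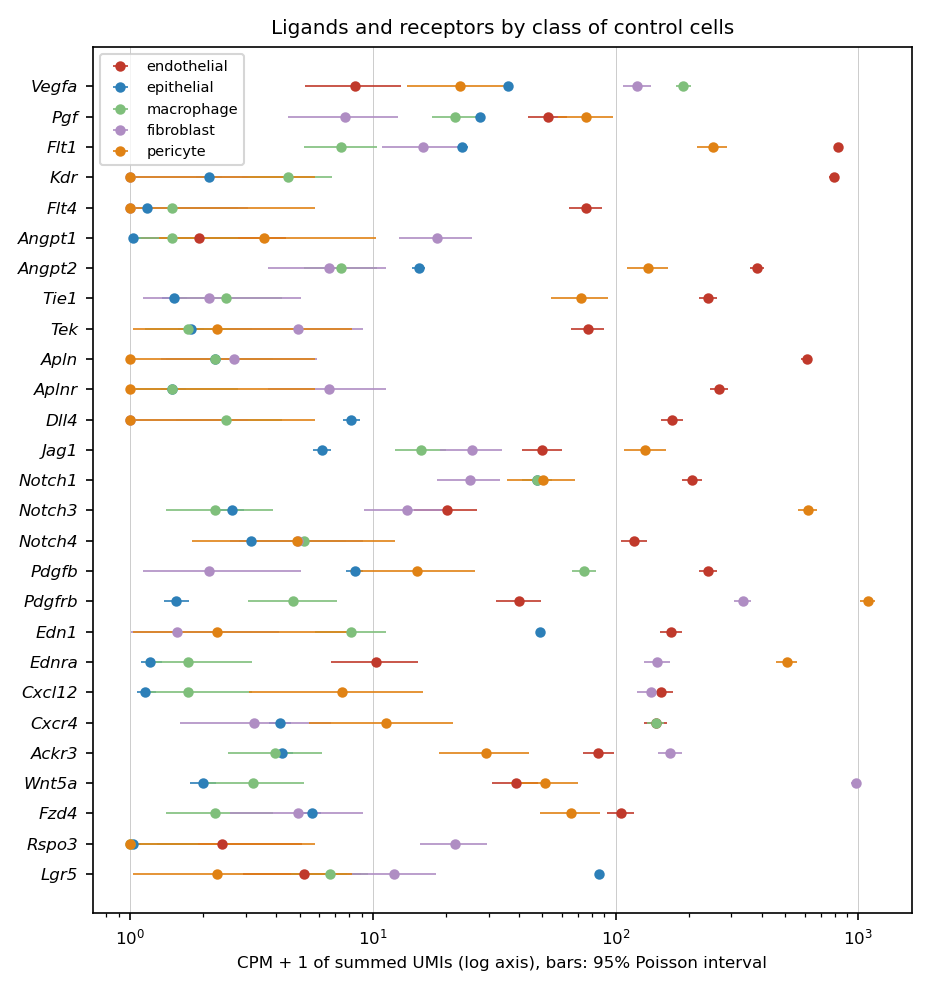
Summed UMIs of ligands and receptors as CPM + 1 on a log axis, by class of control cells. Bars are 95% Poisson intervals. The endothelial points lead for Flt1, Kdr, Tie1, Apln, Dll4 and Pdgfb, and the endothelial point is lowest among the 5 classes for Vegfa, at 7.46 CPM.

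The Wnt genes of the adenoma epithelium were low in the members. Of 30 Wnt and Norrin genes 19 passed, 12 were called lower and 2 higher, and the median log2 ratio was −3.18. The feedback target Axin2 stood at 14 CPM in the members and 337 CPM in the epithelial class, and Notum, whose product removes the lipid of Wnt ligands, at 6.53 and 276 CPM. The 2 higher genes were Fzd4, the receptor for Norrin, at 104 CPM against 4.93 CPM in other cells, and Adgra2, a co-receptor of brain vessels, at 35.9 and 1.46 CPM. Neither lay at least 2-fold above each other class, and Fzd4 stood at 64.5 CPM in the pericytes. Among R-spondins, Rspo1 and Rspo2 had 0 UMIs in the members, Rspo3 had 3 and Rspo4 had 1. Rspo3 was at 20.7 CPM in the fibroblasts. Lgr5, an R-spondin receptor of stem cells, had 4.2 CPM in the members and 84.7 CPM in the epithelial class.

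Of the BMP and TGF-beta list 20 genes passed, 12 were called higher and 3 lower. Eng and Acvrl1, a receptor pair for BMP9 and BMP10 in vessels, stood at 1140 and 180 CPM in the members and 173 and 103 CPM in the highest other class. The type I receptor Bmpr1a was called lower, at 4.2 CPM in the members and 55.1 CPM in other cells. The secreted factor list had 12 of 19 genes called higher, among them Inhbb, a subunit of activin B, at 264 CPM in the members and 9.39 CPM in other cells.

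Vessel wall genes were called higher in most cases. Of 24 basement membrane genes, all of which passed, 18 were called higher and 2 lower, with a median log2 ratio of 4.39. The collagen IV chains Col4a1 and Col4a2 stood at 4927 and 2822 CPM in the members, but the highest other class reached 5193 and 2918 CPM. Col15a1, a collagen of the outer basement membrane, stood at 903 CPM and at most 200 CPM elsewhere. The 2 lower genes were Mgp, highest in the epithelial class, and Igfbp5, highest in fibroblasts. Igfbp5 was seen in 3 members and in none of the unmixed ones.

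Of 17 junction and caveola genes that passed, 12 were called higher and 2 lower. Cav1, the coat protein of caveolae, stood at 1001 CPM in the members and 6.35 CPM in other cells, and Cavin2 at 287 and 2.29 CPM. The tight junction genes Cgn and Ocln, of epithelium, were the lower ones, at 0.466 and 3.27 CPM. Cldn5, the endothelial claudin, stood at 117 CPM (103 to 132) and was seen after thinning in 14.3% of members and 3.36% of epithelial cells.

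Of the capillary and lipid handling list 8 of 10 genes that passed were called higher. Gpihbp1, which carries lipoprotein lipase to the capillary lumen, stood at 549 CPM and 1.34 CPM, and Fabp4, a fatty acid carrier, at 858 and 6.42 CPM. The lipase Lpl itself had 3 UMIs in the members. Nos3, the endothelial nitric oxide synthase, stood at 113 CPM in 90 members and at most 1.68 CPM in another class, among 14 of 18 vasoactive genes called higher.

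**Figure D3:**
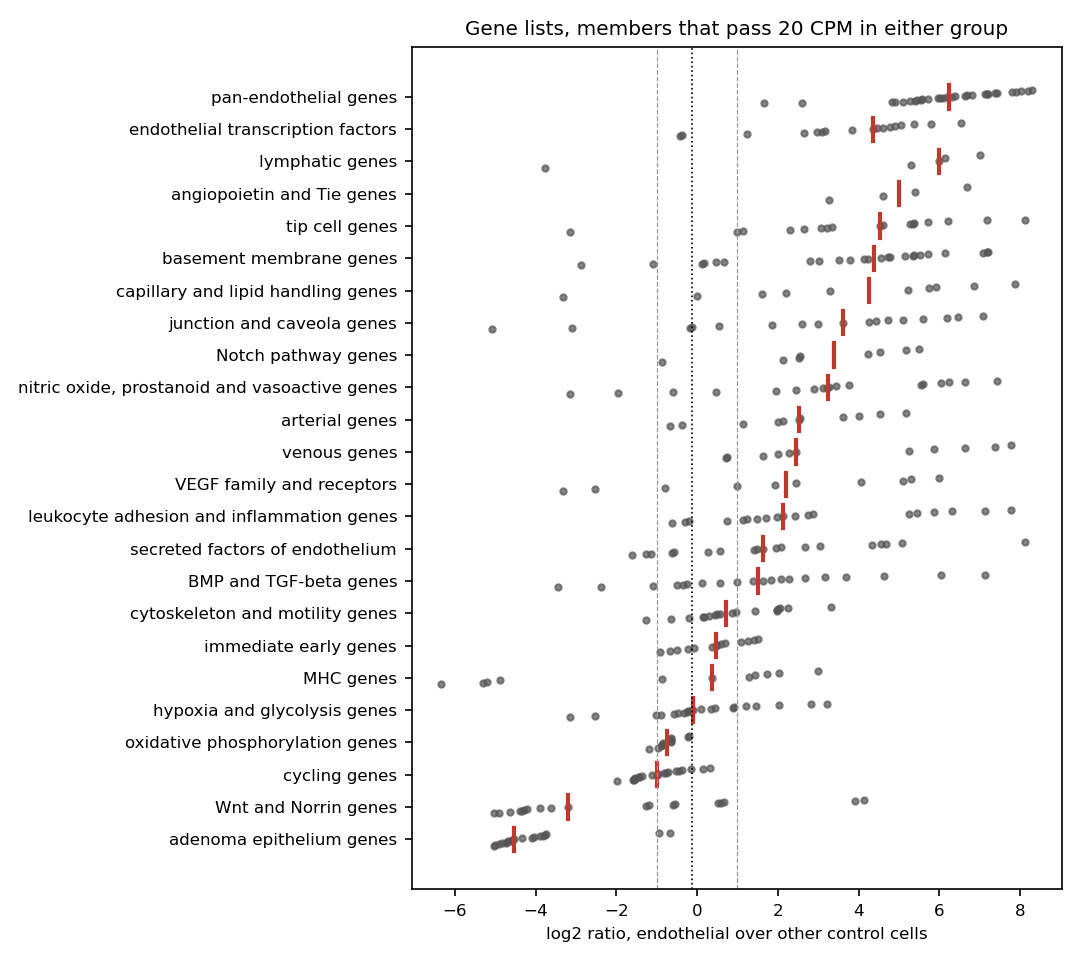
Log2 ratio of endothelial over all other control cells for each gene that passed 20 CPM in either group, by list (grey points), with the list's median as a red bar, the median of all 7680 genes (−0.13) dotted and 2-fold differences dashed. Medians run from 6.24 for pan-endothelial genes to −4.52 for adenoma epithelium genes.

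Genes of leukocyte traffic were called higher in 15 of the 19 that passed, with none lower. Selp, which tethers rolling leukocytes, stood at 375 CPM (350 to 402) in 58 members and at most 5.4 CPM elsewhere, Madcam1, the gut homing receptor, at 195 CPM in 31 members, and Icam1 at 191 CPM in 68 members. Selp had a median of 0 UMIs per member and 45.7% of its UMIs in 5 cells. Of 11 antigen presentation genes that passed, 5 were called higher and 4, all of class II, lower. B2m, the light chain of class I, stood at 1064 CPM in the members and 1709 CPM in the highest other class, and Cd74, the class II chaperone, at 14.9 CPM in the members and 8222 CPM in macrophages. H2-Q7 and other class I genes have near copies whose reads may be split.

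The members held few cycling cells by counts of 16 G2/M genes. These genes summed to 0 in 76 members and to more than 20 UMIs in 3, with 255, 158 and 154 UMIs, where the fourth highest member had 8. The largest of the 3 cells had 81107 UMIs, and 1 of the 3 was mixed. After thinning, 3 members (2.38%, 0.494 to 6.80) and 227 epithelial cells (11.7%, 10.3 to 13.3) held at least 3 UMIs of them. Without thinning, 2.38% and 17% held more than 20. Of 21 cycling genes that passed, 12 were called lower and none higher. Mki67 stood at 31.3 CPM in 6 members and 93.9 CPM in other cells, and Top2a at 54.1 and 142 CPM.

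Of 21 hypoxia and glycolysis genes that passed, 5 were called higher, 3 lower and 13 neither. Over all 7680 genes compared, 18.2% were called higher and 18.2% lower. The counts for this list and for the mesenchymal genes below are near those shares. Ankrd37, a hypoxia responsive gene, stood at 66.7 CPM and 8.63 CPM, and Hk2, a hexokinase, at 7 and 70.3 CPM. Of 12 oxidative phosphorylation genes 11 were not called and Ndufa4 was lower, at 391 and 901 CPM. Of 14 immediate early genes 4 were called higher, among them Fos at 1839 and 858 CPM, with the pericytes at 2996 CPM. Of 10 mesenchymal genes that passed, 2 were called lower and 2 higher, Zeb1 and Snai1, at 227 and 46.2 CPM. The collagens Col1a1 and Col1a2 stood at 181 and 154 CPM in all members, each from 5 cells, and at 0.624 and 0 CPM in the unmixed members.

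The members were not alike. Gene sets were chosen after the data had been seen and are used for description only, namely a sprouting set (Apln, Angpt2, Cxcr4 and Nid2), a venule set (Selp, Ackr1, Madcam1 and Sele) and a lymphatic set (Ccl21a, Mmrn1 and Reln). Cells with at least 3 UMIs of the lymphatic set numbered 7. Of the rest, 64 had at least 3 UMIs with the sprouting sum larger, 36 had at least 3 with the venule sum larger, and 19 had neither. These groups differed in depth, with medians of 18593.5, 10789, 6552 and 8131 UMIs for sprouting, venule, lymphatic and neither, and 13 of the 64 sprouting cells were mixed. They are ranges more than types: 26 cells held at least 3 UMIs of both the sprouting and the venule set, and 7 lay within 2 UMIs of the cut.

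**Figure D4:**
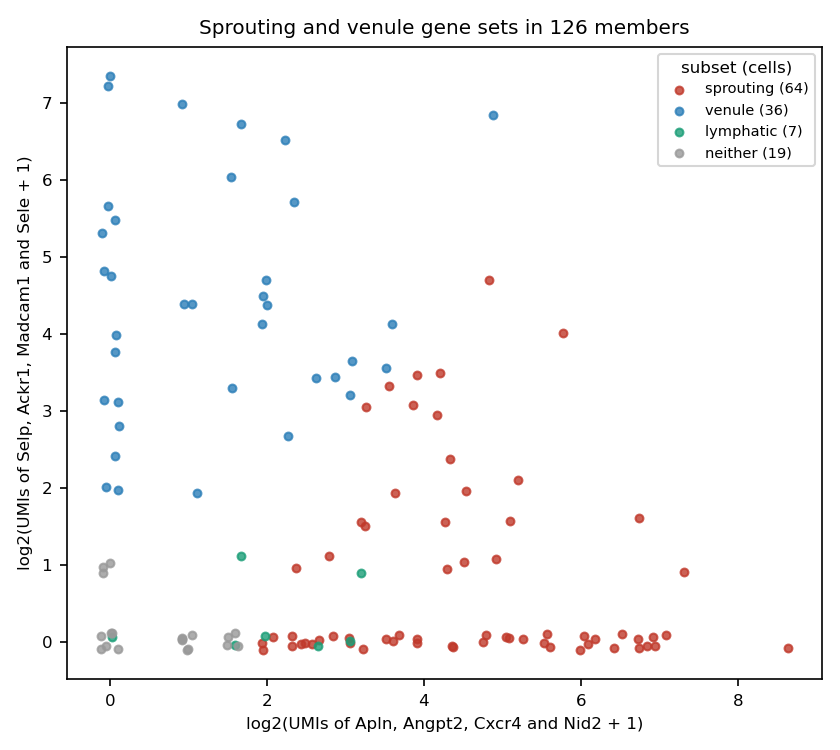
Each of the 126 members by its UMIs of the sprouting set (horizontal) and of the venule set (vertical), as log2(UMIs + 1), with a small random shift to separate points. Most sprouting cells lie along the bottom and many venule cells along the left side, with 26 cells at 3 UMIs or more on both axes.

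Genes outside the sets also differed between sprouting and venule cells. Among the largest differences were fibroblast and pericyte genes held by few sprouting cells. Col3a1 stood at 439 CPM in the sprouting cells, from 8 of them, and 2.42 CPM in the venule cells, Rgs5 at 304 and 2.42 CPM, Epcam at 86.4 and 16.9 CPM, and Krt8 at 102 and 12.1 CPM. In the 51 sprouting and 35 venule cells that were not mixed, these genes were close or near 0, with Col3a1 at 5.02 and 2.48 CPM, Rgs5 at 1.00 and 2.48 CPM and Epcam at 19.1 and 17.4 CPM. Rgs5, Epcam and Krt8 were among the genes that defined mixed cells, so leaving those cells out lowers them by construction. Col3a1 was not among them. The endothelial genes below kept their difference in the unmixed cells: Esm1 stood at 983 and 102 CPM, Gpihbp1 at 714 and 34.8 CPM, and Slco2a1 at 152 and 1304 CPM. With all cells, Esm1 stood at 878 CPM in the sprouting cells (54 of 64 with a UMI) and 99.2 CPM in the venule cells (9 of 36). Gpihbp1 stood at 720 and 33.9 CPM, and Nes, an intermediate filament gene of growing vessels, at 214 and 7.26 CPM. Pgf, a VEGF relative that binds FLT1, had 108 UMIs in the sprouting cells, 0 in the venule cells and 3 in the lymphatic cells. Adm, which encodes adrenomedullin, had 97.6 and 2.42 CPM.

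The venule cells were higher in the prostaglandin transporter Slco2a1, at 1403 CPM against 110 CPM in the sprouting cells, and all 36 had a UMI of it. Lrg1, a secreted modifier of TGF-beta signalling, stood at 1207 and 247 CPM, Icam1 at 423 and 138 CPM, and Nr2f2, the transcription factor of venous identity, at 295 and 94.3 CPM. Of the 30 pan-endothelial genes, 28 differed by less than 2-fold between venule and sprouting cells. The exceptions were Tek, at 131 CPM in venule and 58.7 CPM in sprouting cells, and Cldn5, at 4.84 and 129 CPM. Eng stood at 1724 and 985 CPM, Adgrl4 at 285 and 563 CPM, and the rule marker Plvap at 2992 and 1914 CPM. Cdh5 stood at 1439 CPM in the venule and 1371 CPM in the sprouting cells, and Cd34 at 779 and 827 CPM.

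Single genes were split among the members too. Of 29 members with Ackr1, the chemokine sink of venules, 26 had Selp, 23 had Madcam1 and 6 had Esm1, whereas 66 of the 97 members without Ackr1 had Esm1. Ackr1 was seen in 4 of 77 members with Gpihbp1 and in 25 of 49 without it. The median depth was 11851 UMIs in members with Ackr1 and 13991 in those without. Members with Gpihbp1 had a median of 16823 UMIs and those without it 8440. Across the 126 members, which share 1 library and differ in depth, Spearman's rho of levels was −0.40 between the sprouting and venule sets, 0.67 between the sprouting set and Esm1, and 0.51 between the sprouting set and UMIs per cell. Gja5, the connexin of arteries, was seen in 3 members.

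The 7 cells of the lymphatic set shared further genes of lymphatic endothelium. Prox1 had 3 to 16 UMIs in each of them, and Lyve1, a hyaluronan receptor, had 52, 54, 32, 36, 11, 16 and 28 UMIs. Together they held 229 of the 332 Lyve1 UMIs of all members, a level of 4803 CPM against 49.1 CPM in the other 119. Lyve1 was also seen in 18 sprouting and 18 venule cells, so on its own it did not mark these 7. Of the set that chose these cells, which therefore had to be high in them, Mmrn1, a matrix protein stored by lymphatic endothelium, had 4 to 25 UMIs in each and 0 in every other control cell. Ccl21a, whose near copies may share reads, was in 4 of the 7, and 132 of its 151 UMIs came from 1 cell.

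Prox1 was also an epithelial gene here, at 545 CPM in the epithelial class, yet the 7 cells stood at 944 CPM, while the sprouting cells stood at 15.8 CPM and the venule cells at 7.26 CPM. Flt4 stood at 839 CPM in the 7 cells and 57.2 CPM in the other members, and Cldn5 at 839 and 100 CPM. The blood vessel genes Vwf, Flt1, Esam, Igfbp3, Sparcl1 and Col15a1 were at 0 UMIs in all 7 cells, and Sparc, a matrix glycoprotein, was at 105 CPM against 3874 CPM in the venule cells. Pecam1 and Cdh5 were both at 650 CPM. A further 5 members held 1 or 2 UMIs of the lymphatic set.

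**Figure D5:**
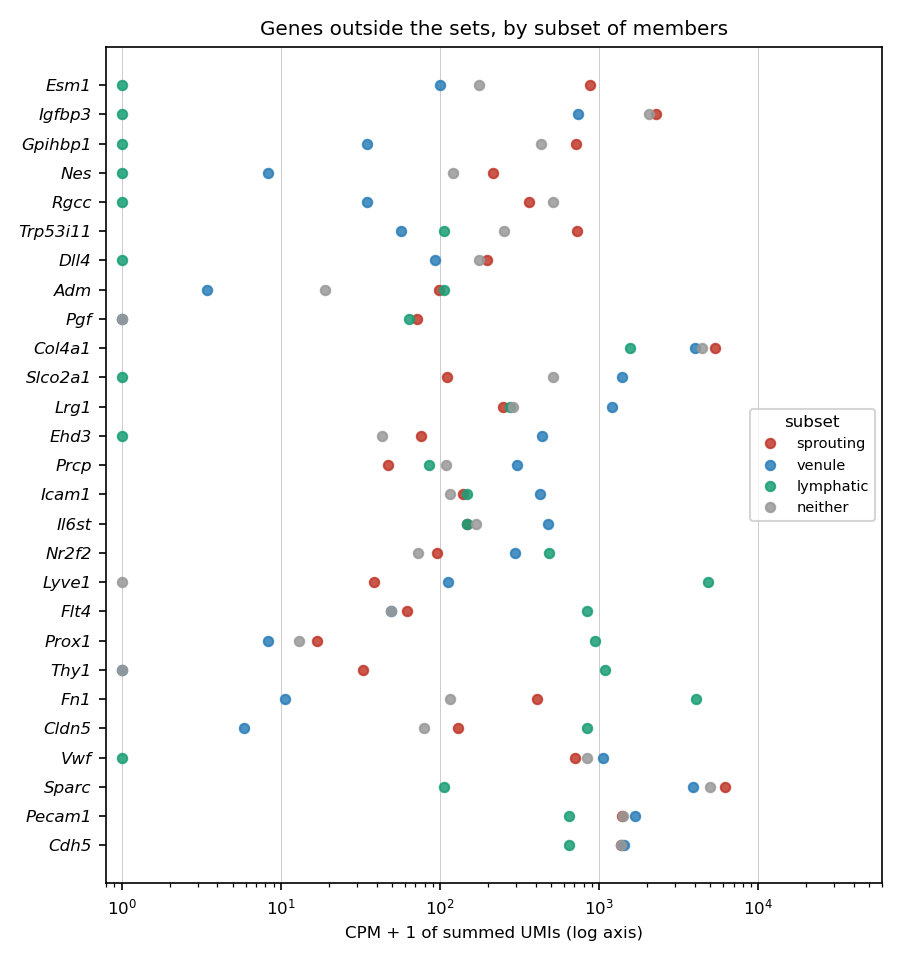
Summed UMIs of genes outside the gene sets, as CPM + 1 on a log axis, for the 4 groups of members. Esm1, Gpihbp1 and Nes lead in sprouting cells, Slco2a1 and Lrg1 in venule cells, and Lyve1, Prox1 and Flt4 in the 7 lymphatic cells, in which Vwf is at 0 UMIs.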

How the data were processed

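Both libraries were droplet libraries, made with the 10x 3′ v2 kit per the labels' protocols. The deposited matrices hold unscaled UMI counts for every barcode, which the authors made with Cell Ranger 2.1.1 on mm10 and Seurat 3.1.1 per the submitters' processing notes, while the control matrix names software 3.1.0 per the file headers. The members, gene lists and alternatives were chosen with earlier results of these data known.

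Control barcodes above the depth limit numbered 3464, and 321 of them failed the mitochondrial limit. The design text puts the number of cells at 5000 per sample, where these limits left 3143 (control) and 2979 (RSPO1-Fc). A filter used by the study is not given in the sources used here. Total counts were 91675581 UMIs (control) and 89437327 UMIs (RSPO1-Fc). The members held 2143891 UMIs and the other control cells 75405597. UMIs were summed per class and scaled to CPM in python 3.11.15 with pandas 2.3.3 and numpy 2.4.6. Fold values had no pseudocount and log2 ratios had 1 CPM added, which understates low genes. Sums have exact Poisson intervals, shares Clopper-Pearson and folds conditional Clopper-Pearson intervals (95%, scipy 1.17.1). A fold against 0 UMIs would use a floor of 3 counts over the group. Symbols listed in more than 1 row of the table numbered 71 and were kept apart by identifier. Gene overlaps came from GENCODE M21 (GRCm38). The method was tested on simulated data.

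Named genes were the 15 highest and 10 lowest ratios at 50 CPM or more, up to 4 per list, the rule markers, and the VEGF, angiopoietin, apelin and R-spondin families. Other genes, among them those of the subsets and of the receptor pairs, were named after their values had been seen. One gene that the rule named is not reported here. A doublet score per cell came from scrublet (scanpy 1.11.5), and no cell was taken out by it in the values reported. The highest 79 scores (2.51%, at 0.8% per 1000 cells) included 7 members, and the tool's own threshold marked 28 cells. Levels in sprouting and venule cells without the mixed ones were added after seeing the data. Barcodes in common between the libraries numbered 13867 with any UMI and 0 among cells.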

Additional observations from a re-analysis of the deposited data

How the results depend on the processing

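The share of endothelial cells stayed between 3.55% and 4.31% under all limits on depth, mitochondrial share, marker sum, mixed cells and doublet scores. Genes called higher numbered 1398 as reported, 3047 with no filter on low values, and 1286 to 1905 under the other settings. Genes called lower numbered 1397 as reported, 2634 with a filter of 5 CPM and 9868 with none, which test more genes by construction. After thinning to 2000 UMIs, 76.3% of the genes called higher were called again. Without the 15 mixed cells, 94.3% were. The median log2 ratio of the pan-endothelial genes was 5.76 after thinning, 5.82 as a mean of per-cell CPM, 6.75 against the epithelial class alone and 4.68 with 10 CPM added, which shrinks ratios by construction.

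Ratios that changed sign concerned other cell types for the most part. Against the epithelial class alone, the median of the fibroblast markers was 3.81 (Dcn 3.81), that of the erythrocyte and platelet markers 3.58 (Hbb-bt 2.76, Hba-a2 3.33, Hba-a1 3.58 and Hbb-bs 3.91), S100a4 was at 0.65 and Zeb2 at 2.98. With cells of at least 9000 UMIs the erythrocyte and platelet median was 0.25 (Hba-a2 0.0760, Hba-a1 0.25 and Hbb-bs 0.82). The pericyte median, 2.24 as reported, was −1.50 without mixed members, −0.17 after thinning and −0.38 as a mean of per-cell CPM. The median of the mesenchymal transition genes, 0.54 as reported, was −1.33 with mitochondrial UMIs at most 10%, −2.44 without mixed members, −2.15 after thinning and −2.14 as a mean of per-cell CPM. Ccnb1 was at 0.0344 after thinning. Without the 7 cells of the lymphatic set, a setting chosen after seeing the data like that without the 5 cells richest in other markers, Ccl21a was at −0.0190. Beyond what the settings change by construction, the cause was not tested. Of 1764 values of named genes past 2-fold as reported, 1751 kept their direction, as did 361 of 367 medians of other lists. Depth limits genes under 1.40 CPM, or 3 UMIs in all members. No paired analysis was possible because each group is 1 library and no result comes from a test.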

Other observations

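Homeobox genes, which record the position of tissue along the gut and body axis, differed between the endothelial and the epithelial cells of the control library. These genes were looked at after the data had been seen. Hoxb7 stood at 57.4 CPM in 71 members and 0.345 CPM in the epithelial class, and was 135-fold higher (95% interval 91.0 to 206) than in all other control cells. Hoxb4, Hoxb5 and Hoxb8 stood at 52.2, 22.4 and 33.6 CPM in the members and at most 0.631 CPM in the epithelial class, and Hoxd8 at 24.7 and 0.150 CPM. Hoxb4 was also at 36.1 CPM in pericytes. In the other direction Hoxb13, a gene of the hindgut, had 3 UMIs in the members and 105 CPM in the epithelial class, Hoxa10 stood at 21.5 and 115 CPM, and Hoxa9 at 44.3 and 151 CPM. Hoxa7 was at 73.2 and 58.9 CPM.

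Xist, the RNA that coats the silent X chromosome in female cells, was seen in 125 of the 126 members at 1092 CPM, and the 4 Y-linked genes that were looked up were at 0 UMIs in all members. Across the members, the levels of basement membrane genes and of Igfbp3 had a Spearman's rho of 0.73, in cells that share a library and differ in depth. Igfbp3 is itself in the basement membrane list, so the levels compared are not separate quantities. Free RNA was estimated to make up 1.45% of the UMIs of the unmixed members. This came from the epithelial genes of the rule, at 60.5 CPM in those members and 4169 CPM in free RNA. All members together showed 229 CPM of these genes. Cells high in them were left out by the rule and as mixed, so the estimate may be low.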
